A study of Mus musculus with 10 samples.

Results

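Neurotransmitter receptors are membrane proteins through which neurons, muscle and gland cells respond to glutamate, GABA, acetylcholine, serotonin, dopamine and the catecholamines of the adrenergic system. They belong to 2 classes. Ligand-gated channels (the AMPA, kainate and NMDA receptors for glutamate, the GABA-A receptors, the nicotinic receptors and Htr3 of the serotonin family) open an ion pore when the transmitter binds, and G protein-coupled receptors (metabotropic glutamate, muscarinic, the other serotonin, dopamine and adrenergic receptors) signal through G proteins. In cells outside the nervous system, many developmental and neuronal genes carry trimethylation of lysine 27 of histone H3 (H3K27me3), the mark that Polycomb repressive complex 2 writes at silent promoters, most of all at those rich in CpG dinucleotides. The genes described here were all autosomal protein-coding genes of the GENCODE M21 annotation of GRCm38 whose symbol is Gabr, Gria, Grik, Grin, Grm, Chrn, Chrm, Htr, Drd, Adra or Adrb with a subunit letter or digit. The rule found 87 receptor genes in 11 families, of 20807 autosomal protein-coding genes. It left out 5 X-linked subunit genes (Gabra3, Gabre, Gabrq, Gria3 and Htr2c), and 5 genes that share only the letters (Grina and Htra1 to Htra4).

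The study profiled H3K27me3 by CUT&Tag, in which a transposase tethered to the antibody cuts and tags the chromatin nearby, in LT-HSCs, the long-term stem cells of the blood. The cells were sorted as LSK CD48-CD150+ from mouse fetal liver at E14.5, from IκBα wild-type (WT) embryos and from IκBα knockout (KO) embryos, which carry a targeted deletion of Nfkbia, the gene of this NF-κB inhibitor, in every cell. There were 3 libraries of each genotype. Replicate 3 was read at 50 bp in both genotypes and the other 2 at 75 bp, per the labels. The question for these genes was whether their promoters carried the mark in LT-HSCs and whether that differed without IκBα. No treatment is named in the labels, and the sorted cells of a library are a bulk sample, in which fewer marked cells and less mark per cell cannot be told apart.

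The libraries differed in size. They held 4160, 6013 and 1047 peaks in WT 1, 2 and 3, and 4904, 5157 and 2325 in KO 1, 2 and 3, and the highest fragment coverage of a median peak was 6 to 10. WT 3 therefore stood apart, and results that rest on it are given with and without it. The deletion could not be checked from these peaks, since Nfkbia had no peak in any library. Of 16 genes that mark or regulate blood stem cells, 15 were free of promoter peaks in all 6 libraries, including Ptprc, Kit, Slamf1, Procr, Runx1 and Gata2, and Erg was called in 5 of the 6 libraries. Promoter peaks were found in at least 1 library at 6 of 6 neural genes, 4 of 8 hepatoblast genes and 2 of 6 endothelial genes, where 16.5% of all coding genes had one. Among these, the neural gene Nes was called in all 3 WT and in no KO library (background 0.00961%). The endothelial gene Kdr was called in WT 2 alone.

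The sequences at the start sites differed as widely as the calls did. RefSeq promoter windows were matched for 63 of the 87 genes. The 250 bases upstream of the RefSeq start are shown for 2 genes called in all 6 libraries and 2 called in none, each from GRCm38.p6 and 5′ to 3′ on the minus strand, with CG dinucleotides in capitals. They lay at chr2:25319188-25319437 (Grin1), chr2:181039178-181039427 (Chrna4), chr11:70619195-70619444 (Chrne) and chr7:102116714-102116963 (Chrna10). By the rule that chose them they are extremes of CpG content, so they illustrate the range and test nothing.
Grin1: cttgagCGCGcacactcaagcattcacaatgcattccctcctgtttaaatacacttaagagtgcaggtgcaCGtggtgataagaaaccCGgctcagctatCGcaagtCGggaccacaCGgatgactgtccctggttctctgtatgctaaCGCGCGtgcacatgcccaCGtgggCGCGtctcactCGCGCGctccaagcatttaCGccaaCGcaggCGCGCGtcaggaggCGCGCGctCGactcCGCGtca
Chrna4: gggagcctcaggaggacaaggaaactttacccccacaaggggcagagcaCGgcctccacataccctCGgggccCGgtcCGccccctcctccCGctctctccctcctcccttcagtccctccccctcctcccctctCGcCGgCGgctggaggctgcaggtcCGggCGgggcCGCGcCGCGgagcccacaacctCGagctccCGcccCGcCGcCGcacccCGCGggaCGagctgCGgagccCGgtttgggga
Chrne: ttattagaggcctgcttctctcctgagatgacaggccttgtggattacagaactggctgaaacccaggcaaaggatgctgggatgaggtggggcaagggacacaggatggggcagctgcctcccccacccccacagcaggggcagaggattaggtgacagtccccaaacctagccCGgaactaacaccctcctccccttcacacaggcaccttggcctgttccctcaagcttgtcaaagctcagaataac
Chrna10: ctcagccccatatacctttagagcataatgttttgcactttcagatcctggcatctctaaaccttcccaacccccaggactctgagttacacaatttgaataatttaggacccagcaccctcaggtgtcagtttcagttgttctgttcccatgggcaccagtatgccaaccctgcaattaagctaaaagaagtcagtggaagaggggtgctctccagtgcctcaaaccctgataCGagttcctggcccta
The windows of Grin1, the subunit present in every NMDA receptor, and Chrna4, the α4 subunit of the main brain nicotinic receptor, held 27 and 24 CG dinucleotides. Those of Chrne, an adult muscle subunit, and Chrna10, a subunit of the inner ear receptor, held 1 each.

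The receptor genes were marked far more often than coding genes in general. A gene was counted as called when a peak overlapped the stretch from 5 kb upstream to 100 bp downstream of any of its transcription start sites (TSSs). A promoter peak was found at 49, 53 and 10 of the 87 genes in WT 1, 2 and 3 (56.3% and 60.9% in WT 1 and 2), where 11.2%, 13.6% and 3.64% of all autosomal coding genes had one. In KO 1, 2 and 3 it was found at 50, 52 and 31 genes (57.5%, 59.8% and 35.6%), against 13.4%, 12.8% and 8.47% of all coding genes. In each library the share of receptor genes was 3.16 to 5.05 times that of all coding genes, and the lowest ratio was that of WT 3. Over all libraries, 61 receptor genes (70.1%) were called at least once and 26 never, against 16.5% of coding genes called at least once. Of the 87 genes, 42 (48.3%) were called in all 4 libraries of 75 bp, where the background was 8.98%. Because the genes share families and, in places, peaks, these counts are descriptions and carry no test.

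The excess was also present with an equal number of peaks in every library. With the 1047 strongest peaks of every library, 10 to 17 receptor genes were called per library (up to 19.5%), against 3.64% to 4.56% of all coding genes. Adding gene bodies raised the number called at least once to 65 (74.7%, background 18.2%). The 4 genes gained were Grik5, Chrnb4, Gabrr1 and Htr3b.

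**Figure D1:**
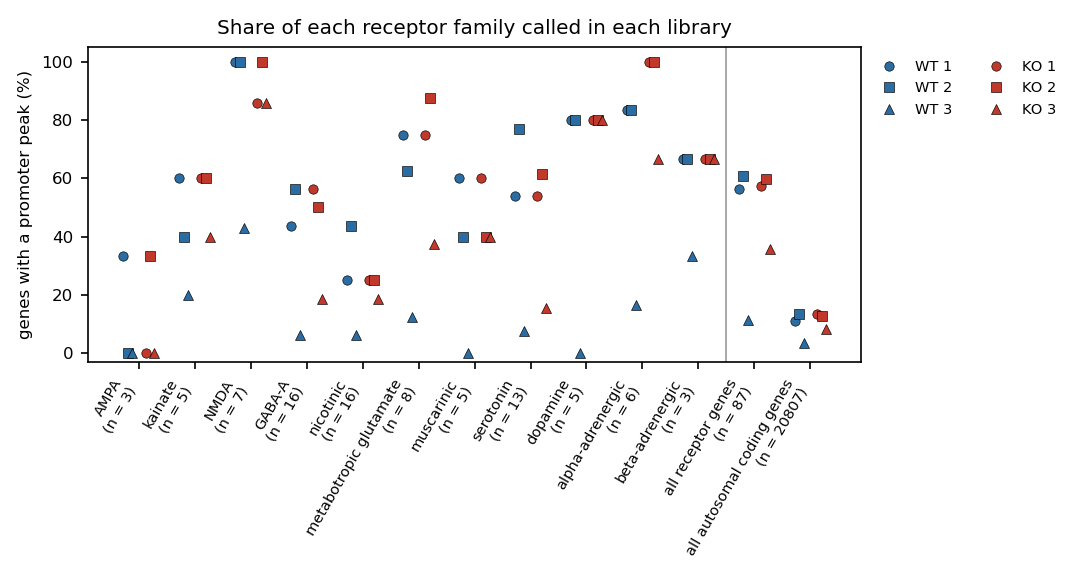
Share of the genes of each receptor family with a promoter peak (%, vertical axis) in each of the 6 libraries. Blue marks are WT and red marks KO, circles, squares and triangles are replicates 1, 2 and 3, and the last columns give all 87 receptor genes and all 20807 autosomal coding genes. The triangles of replicate 3 lie lowest in most families, and in the libraries of 75 bp the NMDA and α-adrenergic genes lie highest.

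The families differed in how completely they were marked. All 7 NMDA receptor genes and all 6 α-adrenergic genes were called in at least 1 library. The share was 7 of 8 for metabotropic glutamate, 4 of 5 for dopamine, 10 of 13 for serotonin, 2 of 3 each for AMPA and β-adrenergic, 10 of 16 for GABA-A, 3 of 5 each for kainate and muscarinic, and 7 of 16 for nicotinic receptors. By class, 30 of 49 channel genes and 31 of 38 G protein-coupled receptor genes were called at least once, and 18 and 24 of them in all 4 libraries of 75 bp. The lowest share was that of the nicotinic receptors, where muscle subunits (2 of 5) and the other subunits (5 of 11) were called about as often. With 3 to 16 genes a family, these shares rank the families only roughly.

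**Figure D2:**
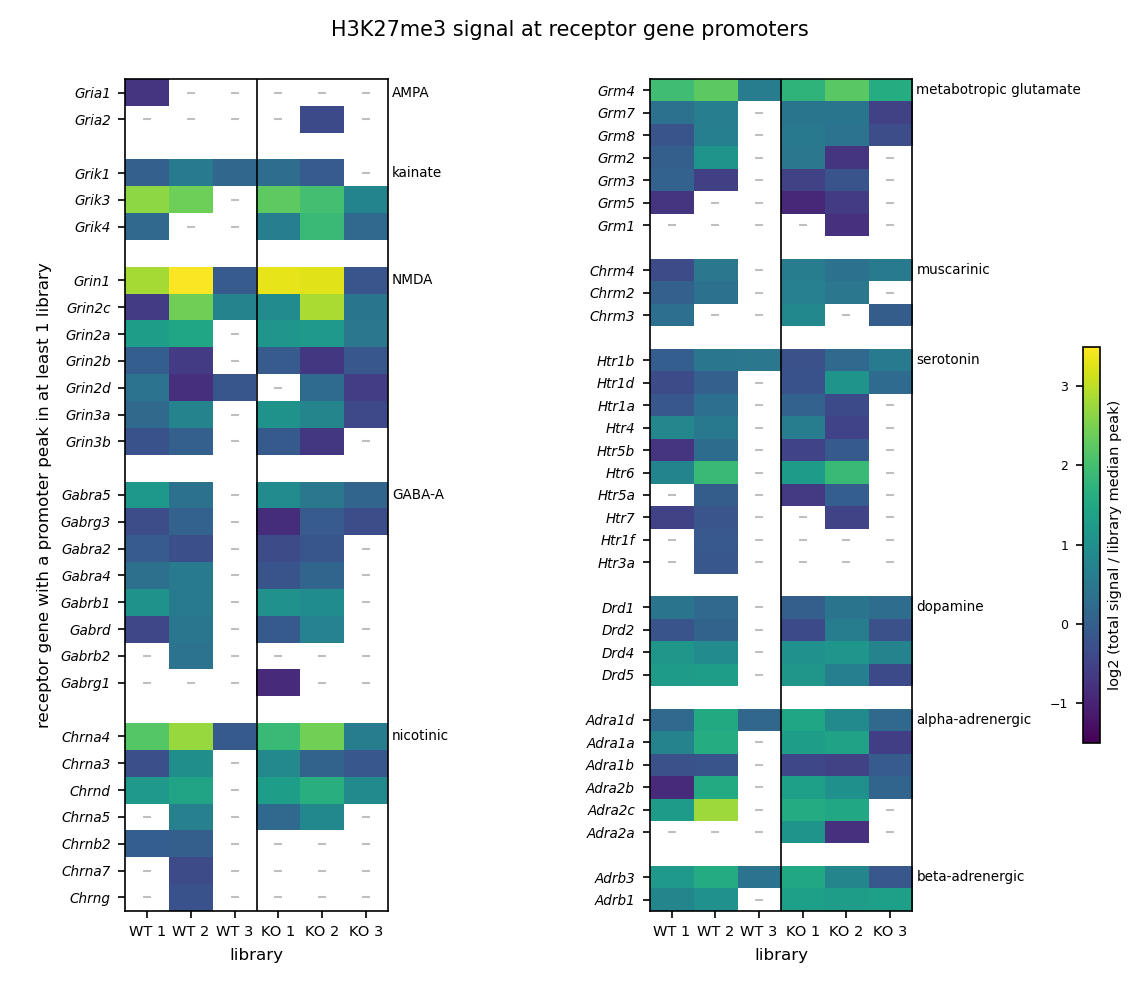
Total H3K27me3 signal over the promoter peaks of 59 of the 61 receptor genes called at least once (rows, grouped by family) in the 6 libraries (columns). Colour is log2 of the summed signal relative to the median peak of the same library, and a grey dash means no promoter peak. The WT 3 column is mostly empty, and most rows are filled in the 4 columns of 75 bp libraries.

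By the sum of promoter peaks, the strongest mark lay on Grin1. Values are given as relative signal, the summed total signal of a gene's promoter peaks divided by the median peak of that library, since the deposited signal is not scaled to depth. Over the 4 libraries of 75 bp the mean was 9.47 ± 1.67 for Grin1, 5.07 ± 1.25 for Chrna4, 5.07 ± 0.931 for Grik3, 4.16 ± 0.654 for Grm4, 3.78 ± 3.04 for Grin2c and 3.75 ± 2.08 for Adra2c (SD, n = 4). Those below Grin1 lay within each other's spread. The lead of Grin1 depended on the summing, since in WT 2, KO 1 and KO 2 it took in 2 separate regions. By single region, merged over these libraries, mean log2 signal was 2 for the larger Grin1 region, 1.92 for Grin2c and 1.85 for Grik3. Over all 6 libraries it was 1.11 for Grin2c and 0.97 for Grin1. Grin1 had a relative signal of 7.14, 11.1 and 0.954 in WT 1, 2 and 3 and of 9.91, 9.74 and 0.882 in KO 1, 2 and 3. By these promoter peaks it was high in all 4 libraries of 75 bp and below the median peak in both of 50 bp. In KO 3 the same region also held peaks outside the promoter stretch. Its total signal there was 21246, where the median peak of that library had 10398. The Grin1 domain in WT 2 and KO 1 covered 27877 and 31649 bp of peak. Its peaks also reached the promoters of Lrrc26 and Tmem210, and in WT 3 the peak did not cover the main start site.

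Among the other NMDA genes, Grin2c, a glutamate-binding subunit known from the cerebellum, had relative signals of 0.646, 5.33 and 1.66 in WT and 1.89, 7.24 and 1.36 in KO. These values differed more between replicates than between genotypes, and part of the peaks reached the neighbouring promoter of Fdxr. They count only peaks that reach the promoter stretch, and in WT 1 and KO 1 they left out other peaks of the same domain. Over the whole merged region, total signal was 54085 and 93364 in WT 1 and 2 and 84629 and 91402 in KO 1 and 2. The spread between these libraries was smaller by that measure. Grin2a, the subunit that rises as the brain matures, had 2.45 and 2.70 in WT 1 and 2 and 2.18, 2.32 and 1.39 in KO. The other 4 were Grin3a with 0.759 to 2.06, Grin2b with 0.624 to 1.0, Grin3b with 0.617 to 1.02, and Grin2d with 0.573 to 1.32 over the libraries that called them. Grin2d was called in every WT library and in KO 2 and KO 3. In KO 1 the gene held 2 peaks outside the promoter stretch, of which that of 4107 bp ran past its 3′ end and that of 2651 bp lay inside it. Its promoter peaks also reached the promoter of Kdelr1.

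Of the kainate receptors, which modulate transmitter release as well as carrying current, Grik3 had relative signals of 6.24 and 5.25 in WT 1 and 2 and of 4.76, 4.02 and 1.70 in KO, with no peak in WT 3. Grik1 had 1.02, 1.46 and 1.11 in WT and 1.22 and 0.973 in KO 1 and 2, with no peak in KO 3. Grik4 was called at the promoter in WT 1 (1.16) and in KO 1, 2 and 3 (1.55, 3.71 and 1.16). In WT 2 it held 8 separate peaks along the gene, 34523 bp in sum, all outside the promoter stretch. The missing call there was therefore not a missing mark. WT 1, KO 1 and KO 2 also held peaks inside the gene and outside that stretch. Grik5 had no promoter peak in any library. In 5 of 6 a peak past its 3′ end reached into the gene, with relative signals of 1.94, 3.33, 2.69, 3.11 and 2.46 in WT 1, WT 2 and KO 1 to 3, and only 1.19% to 32.2% of the width of these peaks lay in Grik5. Grik2 had none at all.

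The AMPA receptors, which carry most fast excitatory current, had the fewest calls for their number. Gria2, whose edited subunit keeps AMPA channels closed to calcium, was called only in KO 2 (0.766), Gria1 only in WT 1 (0.604), and Gria4 never. Both calls were weaker than the median peak of their library.

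Of the metabotropic glutamate receptors, Grm4, a presynaptic receptor that lowers transmitter release, had 3.9, 4.72 and 1.53 in WT and 3.36, 4.67 and 3.01 in KO. It was above the median peak in all 6 libraries, and the ranges of the genotypes overlapped. Grm7 and Grm8, of the same group, were called in 5 libraries each with 0.704 to 1.57, and Grm2 and Grm3 in the 4 of 75 bp. Grm6, the receptor of retinal ON bipolar cells, was the only gene of this family never called.

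GABA-A receptor genes lie in clusters, and genes of the same cluster were not called alike. In the cluster on chromosome 11, Gabrb2 was called in WT 2 alone and Gabra6 in none. In the chromosome 5 cluster, the start of Gabra4 and the most upstream start of Gabrb1 lie within 1 kb of each other on opposite strands and shared a single peak in each library of 75 bp. That peak spanned 4728 and 4646 bp in WT 1 and 2 and 3031 and 3059 bp in KO 1 and 2, at chr5:71654057-71659789 taken over the 4 libraries, with a total signal of 15759 and 18336 in WT and 12226 and 13747 in KO. It was wider and stronger in both WT libraries than in both KO libraries, a difference that did not pass the test given further on. The main start of Gabrb1 lies downstream of this, and a separate peak covered it in WT 1, KO 1 and KO 2 (total signal 9762, 16300 and 10408) but not in WT 2. Gabra2 was called in the same 4 libraries and Gabrg1 in KO 1 alone. In the chromosome 7 cluster, Gabra5 and Gabrg3 were each called in 5 libraries. The ρ subunits of the retina (Gabrr1, Gabrr2 and Gabrr3) and Gabrp had no promoter peak.

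Among nicotinic subunits, Chrna4 had relative signals of 4.54, 6.63 and 0.940 in WT and 3.71, 5.40 and 1.53 in KO, again high in the 75 bp libraries of both genotypes. Its partner Chrnb2 had 0.997 and 1.01 in WT 1 and 2 and no peak in a KO library or in WT 3. It was the only receptor gene called in both WT and neither KO library of 75 bp (background 0.178%), and Adra2a was the only gene of the opposite kind (background 0.461%). Adra2a, the α2A receptor that restrains noradrenaline release, had 2.12 in KO 1 and 0.580 in KO 2, and in WT 2 and KO 3 peaks of 1.5 and 1.43 covered part of its body and ran past its 3′ end, outside the promoter stretch. KO 2 also had such a peak, of 6003 bp with a total signal of 24206, where the median peak of that library had 12627. The peaks of Chrnb2 were of median size and the promoter peak of Adra2a in KO 2 was among the weakest called there. Neither gene was in the main fits of signal, which took only regions with a peak in every library. In an alternative fit, over regions called in at least 3 libraries, libraries without a peak were set to their lowest peak. The Adra2a region then differed by 1.23 (log2, KO minus WT, SE 0.45) with an adjusted p of 1 (limma). Adra2a was singled out for its KO calls, and WT 1 and WT 3 had no peak in this region and took the fill-in value. Both the choice and the fill-in favoured a higher KO value, so that fit cannot decide whether the genotypes differed there. The centring of that fit raised 7 regions that it shared with the main fit by 0.22 to 0.23.

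In the ganglionic cluster on chromosome 9, Chrna3 was called in 5 libraries (0.827 to 1.99) and Chrna5 in 3. Chrnb4 had no promoter peak, and the 4 peaks that reached its body were those of the Chrna3 promoter. Chrnd, a muscle subunit, had 2.28 and 2.67 in WT 1 and 2 and 2.44, 3.16 and 1.86 in KO. None of its 5 peaks covered the Chrnd start site, and they reached the promoter of the neighbouring Prss56. Of the muscle subunits, Chrna1, Chrnb1 and Chrne were never called and Chrng was called in WT 2 alone.

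The muscarinic receptor called most often was Chrm4, a Gi-coupled receptor of the striatum, with 0.790 and 1.42 in WT 1 and 2 and 1.52, 1.3 and 1.47 in KO. Like those of Chrnd, its peaks reached into the upstream end of the promoter stretch and never covered the main start site, with 49.5% to 67.1% of their width inside the stretch. Chrm2, the receptor that slows the heart, was called in the 4 libraries of 75 bp (1.03 to 1.61), Chrm3 in 3 libraries, and Chrm1 and Chrm5 in none.

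Of the serotonin receptors, Htr1b, a Gi-coupled autoreceptor on axon terminals, was called in all 6 libraries with 0.990, 1.38 and 1.40 in WT and 0.832, 1.15 and 1.46 in KO. Stronger than any other gene of the family was Htr6, a Gs-coupled receptor of the brain, with 1.68 and 3.65 in WT 1 and 2 and 2.37 and 3.71 in KO 1 and 2. Htr1a, Htr4 and Htr5b were called in the same 4 libraries and Htr1d in 5. Htr2a, Htr2b and Htr3b were without a promoter peak, and Htr3a, the subunit every 5-HT3 channel needs, was called in WT 2 alone.

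The dopamine receptors were called in the same libraries. Drd1, Drd2, Drd4 and Drd5 were each called in the 5 libraries other than WT 3, and Drd3 in none. Drd4 had 2.20 and 1.88 in WT 1 and 2 and 2.03, 2.18 and 1.66 in KO, and Drd5 had 2.4 and 2.46 in WT and 2.20, 1.58 and 0.770 in KO. For Drd5 both WT values were above all 3 KO values, and KO 3, a library of 50 bp, was the lowest. WT 3, the other library of 50 bp, had no peak. Within the libraries of 75 bp, 31.7% of all regions called in them had genotype ranges apart. Drd1 and Drd2 ranged from 0.767 to 1.51.

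Among adrenergic receptors, Adra1d, a Gq-coupled receptor of smooth muscle, had 1.16, 2.90 and 1.11 in WT and 2.72, 1.86 and 1.15 in KO. Adrb3, the receptor that drives lipolysis in fat, had 2.27, 3.00 and 1.33 in WT and 2.80, 1.71 and 0.904 in KO, from peaks that also reached the promoter of Got1l1. Both were called in every library and their ranges overlapped between genotypes. Adrb1, the cardiac receptor, had 1.73 and 2.03 in WT 1 and 2 and 2.51, 2.47 and 2.51 in KO, and Adra1a had 1.67 and 3.01 in WT and 2.47, 2.60 and 0.674 in KO. Adrb1 was higher in each of the 3 KO libraries than in the 2 WT libraries that called it, and WT 3 had no peak. In the libraries of 75 bp alone, the genotype ranges were apart at 31.7% of all regions called in them. Adra2c had 2.38 and 6.84 in WT 1 and 2 and 2.97 and 2.81 in KO 1 and 2.

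**Figure D3:**
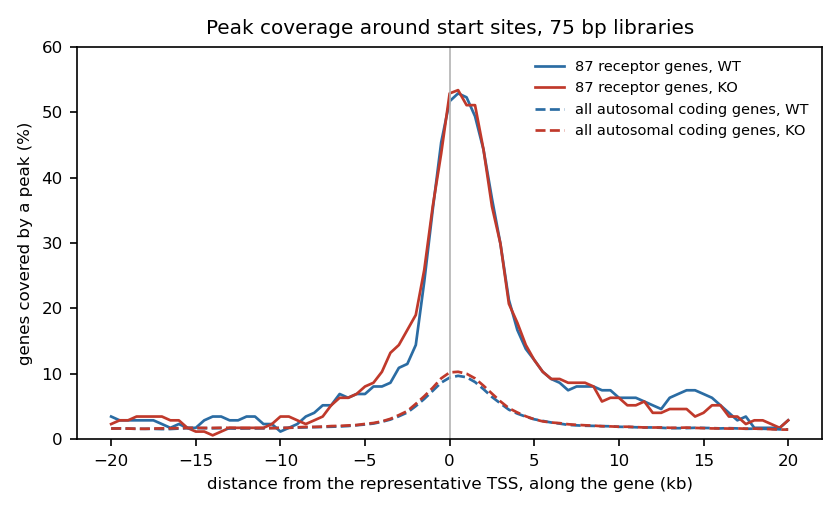
Share of genes covered by a peak (%, vertical axis) at each distance from the representative TSS (kb, horizontal axis, negative upstream), averaged over the 2 libraries of 75 bp of each genotype. Solid lines are the 87 receptor genes and broken lines all autosomal coding genes, blue for WT and red for KO. At the start site the receptor genes reach 51.7% in WT and 52.9% in KO, against 9.4% and 10.2% of all coding genes.

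The peaks covered the start sites and extended further into the genes than upstream. In the libraries of 75 bp, 49.4% (WT) and 51.1% (KO) of receptor genes were covered 1500 bp downstream of the start, and 24.1% and 25.9% at the same distance upstream. All coding genes leaned downstream too, with 8.73% and 9.29% against 6.15% and 6.56%. In the libraries other than WT 3, 86.5% to 94% of the called receptor genes had a peak over the representative TSS (the start of the main APPRIS transcript), and in WT 3 it was 6 of 10. Over all libraries, 58 receptor genes (66.7%) had such a peak at least once, against a background of 13.5%. In the libraries of 75 bp the TSS was covered at 51.7% of receptor genes in WT and 52.9% in KO, and at 9.4% and 10.2% of all coding genes. Of the 61 genes called at least once, 54 (88.5%) had no other coding promoter under their peaks. The peaks were of ordinary size: the median width over receptor promoters was 3350, 4260 and 1980 bp in WT and 5020, 4060 and 2720 bp in KO, where peaks at all coding promoters had medians of 3850, 4090 and 1750 bp and 4210, 3920 and 2880 bp.

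**Figure D4:**
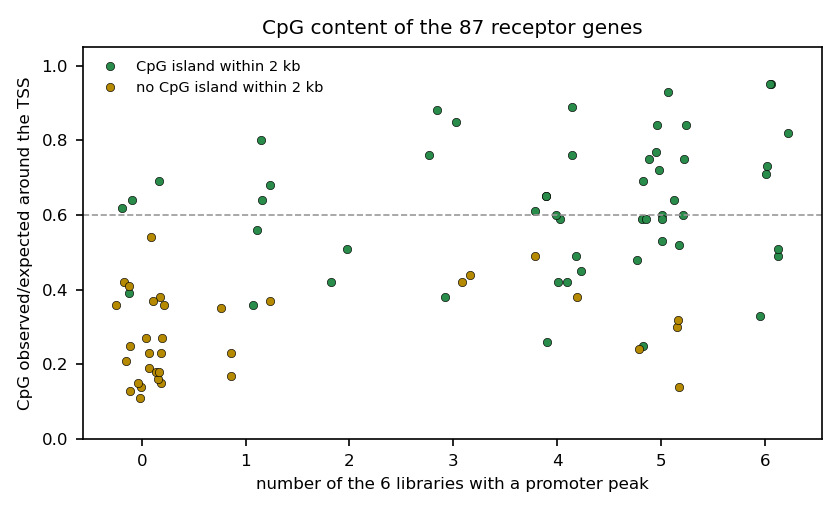
CpG observed/expected ratio over 500 bp either side of the representative TSS (vertical axis) against the number of libraries with a promoter peak (horizontal axis, points spread sideways for visibility) for the 87 receptor genes. Green points have a CpG island within 2 kb of the TSS and yellow points have none, and the broken line marks 0.6. Most genes called in no library are yellow and lie below 0.45.

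Called and uncalled receptor genes differed in CpG content. The median CpG observed/expected ratio around the TSS was 0.257 for the 26 genes never called, 0.439 for the 17 called in 1 to 3 libraries and 0.596 for the 44 called in 4 or more. In this window 29 of 87 receptor genes (33.3%) were at or above a ratio of 0.6, against 48.9% of all coding genes. Within each class they were still called more often: 26 of 29 CpG-rich genes and 35 of 58 CpG-poor genes (89.7% and 60.3%), against 19.3% and 13.7% of all coding genes of the same class.

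A window centred on the main TSS can miss an island nearby, so, after these values were seen, islands were also sought within 2 kb (500 bp with at least 55% GC and a ratio of at least 0.65). By that measure receptor genes were not poorer in CpG, with an island at 60.9% of them and at 57.7% of all coding genes. Of the 53 receptor genes with such an island 49 (92.5%) were called at least once, and of the 34 without it 12 (35.3%), against 21.8% and 9.12% of all coding genes. Chrnb1, Grik2 and Grm6 were among the 4 genes with an island and no call. Among genes without an island, those called in 5 libraries were Chrnd, Chrm4, Adra1b and Grin2d. The first 3 of these had no peak over the main TSS in any library. These genes were named after their values were seen.

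The other genes of neurotransmission were counted in the same way. At least 1 library called 41 of 68 (60.3%), beside 70.1% of the receptor genes and 16.5% of all coding genes. Plasma membrane transporters, which clear transmitter from the synapse, had 11 of 13 called at least once, with Slc1a2, the main glutamate transporter, in all 6 libraries, and 7 called in all 4 libraries of 75 bp. The counts called at least once were 6 of 10 for synthesis enzymes and 4 of 7 for vesicular transporters, and these 6 and 4 genes were also called in all 4 libraries of 75 bp. They were 10 of 18 for other receptors and 10 of 20 for scaffold and auxiliary proteins. Gad1 and Gad2, which make GABA, were called in 5 libraries each and Chat, which makes acetylcholine, in all 6. The enzymes of catecholamine synthesis were split, with Th called in 4 libraries, Pnmt in 5, and Ddc and Dbh in none.

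The number of marked receptor genes did not separate the genotypes. It was 37.3 ± 23.8 in WT and 44.3 ± 11.6 in KO (SD, n = 3 each), a difference of 7 that was smaller than the spread within either genotype. Within same-numbered pairs, KO minus WT was 1, -1 and 21 genes for replicates 1, 2 and 3. In the libraries of 75 bp the mean difference was 0, and without WT 3 it was -6.67. Most of the gap between the means came from the replicate 3 pair, where WT 3 held 1047 peaks and KO 3 held 2325. With the 1047 strongest peaks of every library the counts were 15, 13 and 10 in WT and 17, 16 and 15 in KO, a mean difference of 3.33. KO was then higher in each same-numbered pair, and the ranges met at 15. All coding genes moved the same way in each pair, with 4.15%, 4.01% and 3.64% called in WT and 4.56%, 4.14% and 4.39% in KO.

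The same holds for genes counted as marked in a single genotype. All 3 WT libraries called 10 receptor genes (background 3.17%) and all 3 KO libraries 29 (background 7.5%), with 8 (9.2%) called in all 6, where the background was 2.79%. Among those 8 were Adra1d, Adrb3, Chrna4, Grin1, Grin2c, Grm4 and Htr1b. Called in every WT and not every KO library were Grik1 and Grin2d (2 genes, background 0.38%), and 21 genes showed the opposite (background 4.71%). Of those 21, the 8 with the highest mean relative signal were Grik3, Chrnd, Adrb1, Grin2a, Adra1a, Drd4, Grik4 and Drd5. Each of these 8 lacked a peak in WT 3, and each but Grik4 had a promoter peak in WT 1 and WT 2.

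No receptor gene had a call in every library of a genotype while lacking any in the opposite genotype, where the backgrounds were 0.00961% for WT and 0.0865% for KO. Without WT 3 the counts turned over, with 17 genes in WT only and 1, Grik4, in KO only (backgrounds 3.53% and 0.788%). Without KO 3 they were 1 and 39 (backgrounds 0.13% and 8.21%). Counts of single-genotype genes among receptors moved with the 50 bp libraries in the same direction as those among all coding genes.

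Signal was then compared where a region was called in every library. limma was fitted on log2 total signal, centred on each library's median, over the 717 regions called in all 6 libraries, of which 8 lay at receptor promoters. The largest differences among the 8 were -0.34 for Htr1b (SE 0.50) and -0.31 for Adrb3 (SE 0.42), and the other named genes had 0.16 for Adra1d and Grin2c, 0.06 for Grm4, -0.02 for Grin1 and -0.16 for Chrna4 (log2, KO minus WT, SE 0.33 to 0.50). Each had an adjusted p of 0.992 (limma, Benjamini-Hochberg over all regions). None of the 717 regions passed an adjusted p of 0.05 (0%), and 8 of all regions (1.12%) and 0 of the receptor regions had an unadjusted p under 0.05. The genotype ranges overlapped at all 8, where 6.69% of all regions had ranges apart.

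**Figure D5:**
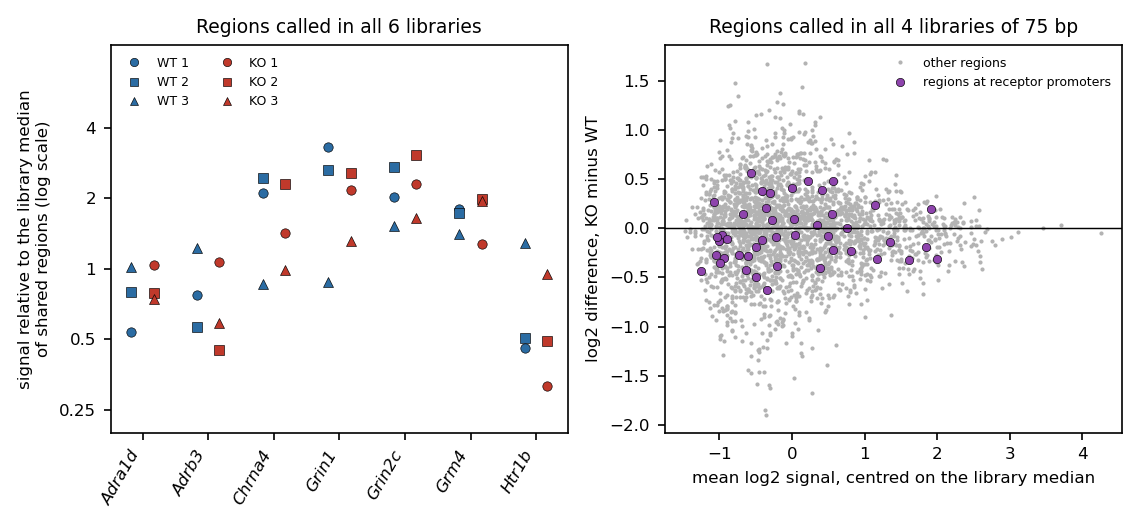
Left, signal of 7 of the 8 receptor regions called in all 6 libraries, relative to the library's median over the 717 shared regions (log scale), with blue for WT, red for KO and circles, squares and triangles for replicates 1, 2 and 3. Right, log2 difference KO minus WT against mean log2 signal for the 2557 regions called in all 4 libraries of 75 bp, with the 44 receptor regions in purple. The genotypes overlap at each of the 7 regions drawn, and the purple points lie between -0.63 and 0.56 within the spread of the others.

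The libraries of 75 bp allowed more genes to be compared. Of 2557 regions called in all 4 of them, 44 lay at promoters of receptor genes, including a pair of separate regions at Grin1 and the shared Gabra4-Gabrb1 region. The median difference was -0.10 at receptor regions and -0.01 over all regions (log2, KO minus WT, median SE 0.34 and 0.35), and 17 of the 44 (38.6%) were higher and 27 lower in KO, where 1252 of all regions (49%) were higher and 1305 lower. The extremes were Htr4 (-0.63, SE 0.44) and Htr1d (0.56, SE 0.48), and the Gabra4-Gabrb1 region differed by -0.50 (SE 0.33). The lowest adjusted p at a receptor region was 0.996 (limma), and no region of the 2557 passed 0.05 (0%). An unadjusted p under 0.05 was reached by 0 of 44 receptor regions and by 4.65% of all regions. The 2 WT and 2 KO values did not overlap at 13 of the 44 (29.5%), 5 higher and 8 lower in KO, where 31.7% of all regions had ranges apart. Both KO values were above both WT values at Adrb1, Chrm2, Chrm4 and Grin3a (0.39, 0.36, 0.38 and 0.41), and below them at Adra1b, Drd5, Gabra4-Gabrb1, Grin2a, Grm7, Htr1a and Htr7 (-0.09 to -0.50). The 2 regions at Grin1 moved in opposite directions, with 0.24 at chr2:25285949-25299462 and -0.31 at chr2:25302380-25323330. With SEs of this size, differences of these sizes were not detectable, and their absence was not shown.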

How the data were processed

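The genes, the lists and the tests were chosen with earlier results of these data known. Per the study's methods, the authors trimmed reads (Trim Galore 0.6.6), aligned them to GRCm38 (Bowtie2 2.4.4), removed duplicates and called peaks in each library with SEACR 1.3 in stringent mode, keeping the top 0.5% of blocks. The deposited signal values of each peak are total fragment coverage and the highest coverage, not scaled to depth. The peak files give no read totals. The 4 samples with IκBα antibodies were not analysed here. Per the paper, the H3K27me3 libraries came from several embryos of each genotype in 2 independent experiments and are called 3 independent replicates, with litter mates used where possible. Which embryos, litter and experiment gave each library is not stated in the sources used here, so p-values measure the spread between these libraries, which may in part be technical.

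A gene was called when at least 1 bp of a peak overlapped its promoter. Merged regions called in all libraries of a fit were tested by limma 3.58.1 (R 4.3.3) on log2 total signal, without a pairing term, checked first on simulated data. A region was 1 merged stretch of peaks from the libraries in the fit. Deviations from the group means correlated between same-numbered libraries over 717 regions (r of 0.27, 0.31 and 0.47), so a replicate block was an alternative. Some genes were counted and are not reported by name here. No test was run on counts of receptor genes, and 3 libraries against 3 cannot give a permutation p below 0.1. Named with values were genes called in all 6 libraries or in every library of a single genotype (the strongest 8), the gene called most in each family, genes sharing a peak, and others that were named after their values were seen. Python 3.11.15, numpy 2.4.6, pandas 2.3.3 and pysam 0.24.0 were used.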

Additional observations from a re-analysis of the deposited data

How the results depend on the processing

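The number of marked receptor genes changed little under other promoter definitions (58 to 65 genes called at least once) and without 1 library (56 to 61). The 58 were those with a peak over the representative TSS. It fell to 47 genes with peaks above the library median and to 28 with 1047 top peaks in every library. The share of all coding genes called at least once was not counted under these settings. Consensus counts depended on the threshold and on replicate 3. With 1047 top peaks, all WT libraries called 3 genes and all KO libraries 8, with 1 WT-only and 6 KO-only (0.514% and 1.21% of all coding genes). With peaks above the library median these were 4 and 14, with 2 WT-only and 12 KO-only (0.471% and 2.76%). In the libraries of 75 bp they were 45 and 48, with 3 and 6 (1.26% and 2.27%), and in 2 of 3 libraries 45 and 50, with 2 and 7 (0.932% and 2.37%). The last 2 settings left 1 gene in each genotype with no peak in the other. With a peak over the representative TSS, a setting chosen after seeing the data, all WT libraries called 5 genes and all KO libraries 24. Single-genotype genes then numbered 0 for WT and 19 for KO, and the matching shares of all coding genes are not given here. Leaving out 1 library at a time gave 10 to 45 genes for WT, 29 to 48 for KO, 1 to 17 WT-only, 1 to 39 KO-only, 0 to 1 with no peak in the other genotype, and a mean difference of -6.67 (without WT 3) to 14.8. The paired difference with the replicate block was 7, and the block left 0 receptor regions past an adjusted p of 0.05 in both limma fits, as did every other setting. It changed no call.

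Scaling by total signal shifted the median log2 difference of all regions to -0.26 in the fit of 6 libraries and to 0 in that of 75 bp. No difference at a receptor region was called, and signs changed, those of the larger differences included (Adrb3 0.18 with array weights, Htr1b 0.14 without WT 3 and 0.03 without KO 1). Total scaling lowered all 7 named regions by the same amount (-0.24), which turned Grin2c, Grm4 and Adra1d to -0.08, -0.18 and -0.08. With maximum signal the values whose sign changed were -0.09, -0.18 and 0.19 for Grm4, Adra1d and Chrna4, and with mean signal per base -0.15 and 0.15 for Grm4 and Chrna4. With regions called in at least 3 libraries, of which 55 lay at receptor promoters, the new centring raised all 7 by 0.22 to 0.23, which turned Grin1 and Chrna4 to 0.2 and 0.07. With array weights they were -0.17 and 0.18 for Grm4 and Adrb3. Without 1 library they ranged from -0.08 to 0.39 (Adra1d), -0.65 to 0 (Adrb3), -0.61 to 0.23 (Chrna4), -0.59 to 0.36 (Grin1), -0.05 to 0.41 (Grin2c), -0.04 to 0.27 (Grm4) and -0.74 to 0.14 (Htr1b). The cause of the changes other than these uniform shifts was not tested. The low coverage of a median peak limits every single value.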
